A study of Mus musculus with 27 samples.

Results

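Isl1, Shox2, Nr2f1 and Nr2f2 encode transcription factors of the atria, the sinus node and the second heart field, and all 4 were measured in the hearts of mice lacking parts of Hand2os1, whose long non-coding RNA is made beside the gene Hand2. They were chosen by name: all 4 were found among 24025 genes of a bulk table and among 19020 rows of a single-cell table. Bulk libraries came from E11.5 hearts (E for embryonic day) with 3 F/+ and 3 F/F, from E16.5 ventricles with 3 F/+ and 3 F/F, and from cardiomyocytes of 8-week-old mice with 5 +/+, 2 D/+ and 6 D/D. Allele F removes the whole of Hand2os1 (Hand2as in the labels) and allele D its 3′ distal portion. All mice were C57BL/6, and the embryonic bulk controls carried 1 F allele themselves. A pair of droplet single-cell libraries, labelled +/+ and F/F, each pooled cells of 6 E11.5 hearts, so there is 1 library per genotype and no replicate. Nothing in the labels says whether bulk replicates were separate animals, so p-values measure the spread between these samples, which may be technical.

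Isl1 is a LIM-homeodomain factor that marks second heart field progenitors, the cells that are added to the outflow tract and the venous pole of the early heart tube. Shox2 is a homeodomain factor of the sinus venosus, where it is required for the sinus node and restrains the working-muscle program driven by Nkx2-5. Nr2f1 and Nr2f2 (COUP-TFI and COUP-TFII) are orphan nuclear receptors that are known to hold atrial muscle apart from ventricular muscle, and Nr2f2 is also known for specifying venous endothelium. In the GENCODE annotation of GRCm38 all 4 lie on the minus strand, Isl1 on chromosome 13 from 116298281 to 116309689, Shox2 on chromosome 3 from 66971727 to 66981771, Nr2f1 on chromosome 13 from 78188973 to 78199757, and Nr2f2 on chromosome 7 from 70351944 to 70366735. Shox2 overlaps the protein-coding gene Rsrc1 on the other strand by 382 bases, Nr2f1 overlaps the antisense gene A830082K12Rik by 1741 bases, and Nr2f2 overlaps the non-coding gene B130024G19Rik by 1826 bases. The strand setting of the counting is not given in the sources used here, so reads of these overlaps could not be assigned with certainty. In bulk E11.5 F/+ hearts Rsrc1 averaged 12.7 FPKM, A830082K12Rik 0.643 FPKM and B130024G19Rik 1.21 FPKM. Nr2f1 and Nr2f2 shared only 10 stretches of 50 bases, of 5090 in Nr2f1 and 8582 in Nr2f2, so few reads could fit both.

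The bases upstream of the start site are shown because the genes moved together between stages in the bulk data given further on. All 4 were found in a table of promoter windows from RefSeq (GRCm38.p6). Each is printed 5′ to 3′ on the minus strand, with capitals for matches to GATAA (the core read by GATA factors), CCAAT and TATAAA, searched on both strands. None of these motifs overlaps another, and a match on the opposite strand shows as its reverse complement (ATTGG). The Isl1 sequence lies at chr13:116309690-116309938, that of Shox2 at chr3:66981772-66982021 and that of Nr2f2 at chr7:70366747-70366996. The Nr2f1 window lay within the gene's own first exon in GENCODE and is not printed.
Isl1: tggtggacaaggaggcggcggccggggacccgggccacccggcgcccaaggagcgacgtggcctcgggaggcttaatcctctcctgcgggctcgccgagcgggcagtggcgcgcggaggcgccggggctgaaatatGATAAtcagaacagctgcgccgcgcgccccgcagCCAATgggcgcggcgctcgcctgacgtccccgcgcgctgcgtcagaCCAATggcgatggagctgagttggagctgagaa
Shox2: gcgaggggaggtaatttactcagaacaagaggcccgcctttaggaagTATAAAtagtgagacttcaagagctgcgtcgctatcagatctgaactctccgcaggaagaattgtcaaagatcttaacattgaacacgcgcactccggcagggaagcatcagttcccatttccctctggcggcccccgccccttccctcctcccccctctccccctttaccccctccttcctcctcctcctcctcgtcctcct
Nr2f2: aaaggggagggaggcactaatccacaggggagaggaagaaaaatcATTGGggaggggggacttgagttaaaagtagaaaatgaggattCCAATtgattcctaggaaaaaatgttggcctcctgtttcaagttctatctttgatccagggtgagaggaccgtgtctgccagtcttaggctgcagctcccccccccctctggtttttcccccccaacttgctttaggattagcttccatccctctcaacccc

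The Isl1 sequence is rich in G and C (71.2%) and holds 33 CpG pairs, with 1 GATAA and 2 CCAAT matches. The Shox2 sequence has 55.6% G and C, 11 CpG pairs and 1 TATAAA match. The Nr2f2 sequence has 50% G and C, 1 CpG pair and 2 CCAAT matches, and the Nr2f1 window has 72.0%, 22 CpG pairs and none of these matches. Over 32851 windows of 250 bases the median was 52.4% G and C and 6 CpG pairs. GATAA was present in 22.6% of those windows, CCAAT in 33.9% and TATAAA in 12.4%, so each match is common. AGGTCA, the half-site that nuclear receptors read, was in none of the 4 windows and in 14.0% of all. These matches describe the letters only.

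Some libraries went against their labels. In the single-cell table Hand2os1 had 1 UMI (a unique molecular identifier, counting 1 captured RNA) where the label is +/+ but 9 where it is F/F. That order is opposite to the labels, so both libraries are called by their labels throughout, and every direction between them rests on those labels. Hand2os1 was listed at 0 in all 6 E11.5 bulk libraries, which checks nothing, was 0.370 to 1.40 FPKM in E16.5 F/+ and 0 in E16.5 F/F, and was at 0 in the library labelled 8-week +/+ replicate 5. Between 10.4% and 29.7% of the summed FPKM of E11.5 hearts was haemoglobin RNA. Gapdh, a housekeeping gene, stood at 0.120 to 5.09 FPKM in the embryonic libraries and at 980.5 to 2529 FPKM in the 8-week libraries, and levels across that boundary carry this shift. The read depth of the bulk values is unknown. The single-cell libraries held 38302758 and 51432290 UMIs, with 2503 and 3368 cells kept, and 18 barcode sequences occurred in both libraries.

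The single cells show where each gene was expressed at E11.5. Cells of both libraries were clustered without the 4 genes themselves, and clusters were called after marker lists that leave the 4 genes out. Isl1 was highest in an outflow tract and second heart field-like cluster (cluster 11) and in a cluster led by Rgs5 that could not be named (cluster 15), Shox2 in an atrial and sinus-like cluster (cluster 13), Nr2f1 in cluster 13 and then cluster 15, and Nr2f2 in cluster 13 and in one of the endothelial-like clusters (cluster 12). Cluster 13 held 110 cells, 35 (1.40%) and 75 (2.23%) of the libraries labelled +/+ and F/F, and 20 of its 25 markers led there. Cluster 11 held 108 and 153 cells, but only 4 of its 12 markers led. Cluster 15 held 82 cells in each library, and its leading genes included Eln, Cxcl12, Dlk1 and Hand1. Erythroid cells, which should lack all 4 genes, gave the background. There Isl1 had a UMI in 0.314% and 0.242% of cells, Shox2 in 0% and 0.161%, Nr2f1 in 0.209% and 0.323%, and Nr2f2 in 0.314% and 0.969%, at a median of 10906 and 11651 UMIs per cell. No Shox2 UMI in 956 erythroid cells of the library labelled +/+ allows up to 0.217 UMIs per 1000000 UMIs (CPM).

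Isl1 in cluster 11 stood at 99.7 CPM, over all UMIs of the cluster, in the library labelled +/+ (159 UMIs, exact 95% Poisson interval 84.8 to 116) and at 78.6 CPM in the library labelled F/F (176 UMIs, 67.4 to 91.1). In cluster 15 Isl1 stood at 125.9 CPM (114 UMIs, 103.8 to 151) and 101.3 CPM (89 UMIs, 81.3 to 125). These intervals, like all those on single cells here, cover counting error only. The intervals of those clusters overlapped in both libraries. All other clusters with at least 50 cells lay far below. Among them, an endothelial-like cluster (cluster 2) had 7.68 and 8.69 CPM. A mesenchymal-like cluster led by Inhba and Postn (cluster 9) had 6.59 and 14.97 CPM. In the atrial and sinus-like cluster Isl1 had only 2 and 10 UMIs, and 4 of those 10 came from 1 cell. The 10 UMIs of the library labelled F/F gave 10.7 CPM, above cluster 2, and 6.47 CPM without that cell.

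Shox2 in cluster 13 stood at 244 CPM in the library labelled +/+ (99 UMIs, 198 to 297) and at 169 CPM in the library labelled F/F (158 UMIs, 143.5 to 197). Cluster 15 followed with 50.8 CPM (37.2 to 67.7) and 25.03 CPM (15.7 to 37.9), so the lead of cluster 13 was wider than counting error in both libraries. Epicardial-like cells (cluster 10) had 11.4 and 3.50 CPM. In cluster 11 the 19 Shox2 UMIs of the library labelled +/+ came from 3 cells, 17 of them from 1 cell, and without that cell the level was 1.27 CPM instead of 11.9. No Shox2 UMI was found in endothelial-like cluster 12 (143 cells) or in trabecular-like cardiomyocytes, where counts of 0 allow up to 3.01 and 2.42 CPM and up to 0.884 and 0.840 CPM.

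Nr2f1 in cluster 13 stood at 158 CPM in the library labelled +/+ (64 UMIs, 121 to 201) and at 126 CPM in the library labelled F/F (118 UMIs, 104 to 151). Cluster 15 held 45.3 and 60.3 CPM, mesenchymal-like cluster 9 held 32.0 and 24.1 CPM, and epicardial-like cells 19.7 and 8.74 CPM. In the library labelled +/+ the intervals of clusters 15 (32.5 to 61.4) and 9 (25.9 to 39.0) overlapped, and in the library labelled F/F those of cluster 15 (45.2 to 78.9) and 9 (18.9 to 30.2) did not. A830082K12Rik, the antisense neighbour, had 7 UMIs of each library in cluster 13 (17.2 and 7.48 CPM).

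Nr2f2 was found in atrial and sinus-like, endothelial-like and epicardial-like cells and in the unnamed cluster 15. It stood at 182 CPM (74 UMIs, 143 to 229) and 113 CPM (106 UMIs, 92.7 to 137) in cluster 13, at 72.1 CPM (56.4 to 90.8) and 68.6 CPM (54.8 to 84.9) in cluster 12, and at 57.2 CPM (47.8 to 67.9) and 41.0 CPM (34.9 to 47.7) in epicardial-like cells. Cluster 15 held 43.1 CPM (30.6 to 58.9) and 44.4 CPM (31.6 to 60.6), which overlapped the epicardial-like cells in both libraries. Cluster 12 was led by Emcn, Plvap and Npr3. Cluster 2, also endothelial-like and led by Stmn2, Klf2 and Aqp1, held 26.1 CPM (18.1 to 36.5) and 36.7 CPM (28.9 to 45.9), below cluster 12 with no overlap of intervals in either library. Ventricular-like and trabecular-like cardiomyocytes had at most 3.13 CPM of any of the 4 genes.

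**Figure D1:**
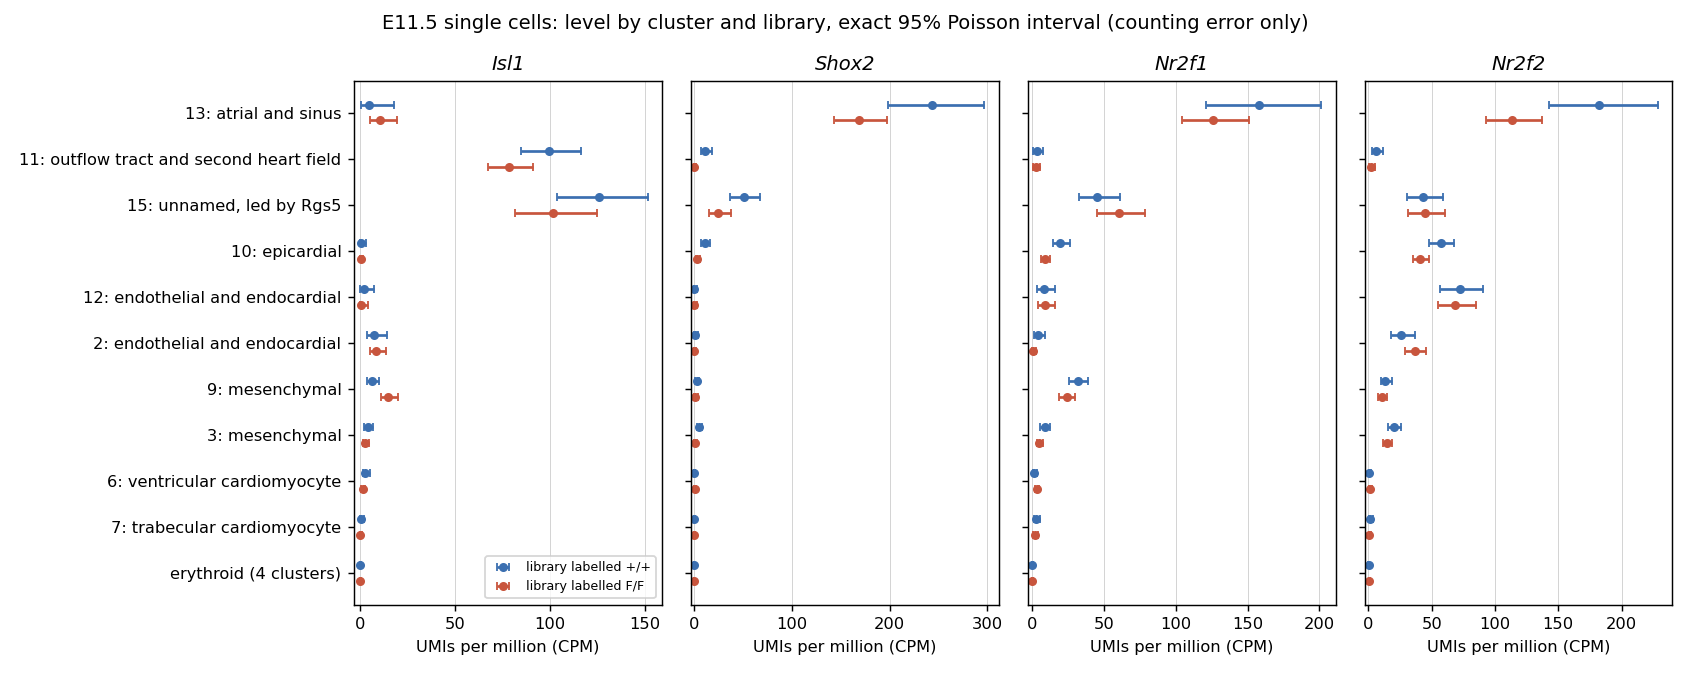
Level of each gene in CPM (horizontal axis, linear, own scale per gene) in 10 clusters and in erythroid cells (vertical axis), for the library labelled +/+ (blue) and the library labelled F/F (red), with exact 95% Poisson intervals that cover counting error only. Isl1 peaks in clusters 11 and 15, Shox2, Nr2f1 and Nr2f2 in cluster 13, and Nr2f2 also rises above erythroid cells in endothelial-like and epicardial-like clusters.

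Seen by origin, the UMIs of the 4 genes came from different clusters. Clusters 11 and 15 held 46.9% and 33.6% of all Isl1 UMIs in the library labelled +/+ and 47.4% and 24.0% in the library labelled F/F. Cluster 13 held 45.8% (exact binomial 95% interval 39.1 to 52.7) of the Shox2 UMIs in the library labelled +/+ and 73.5% (67.1 to 79.3) in the library labelled F/F. Those intervals did not overlap, and the share of cells that fell in cluster 13 differed between the libraries too (1.40% and 2.23%). The largest shares of the Nr2f1 UMIs lay in mesenchymal-like cluster 9 (31.1% and 20.8%) and cluster 13 (20.5% and 33.2%). Nr2f2 came from epicardial-like cells (27.2% and 27.4%), cluster 13 (15.4% and 17.7%), cluster 12 (14.9% and 14.2%), the mesenchymal-like clusters 3 (13.7% and 11.02%) and 9 (8.51% and 5.51%), cluster 15 (8.09% and 6.51%) and cluster 2 (7.05% and 12.7%).

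**Figure D2:**
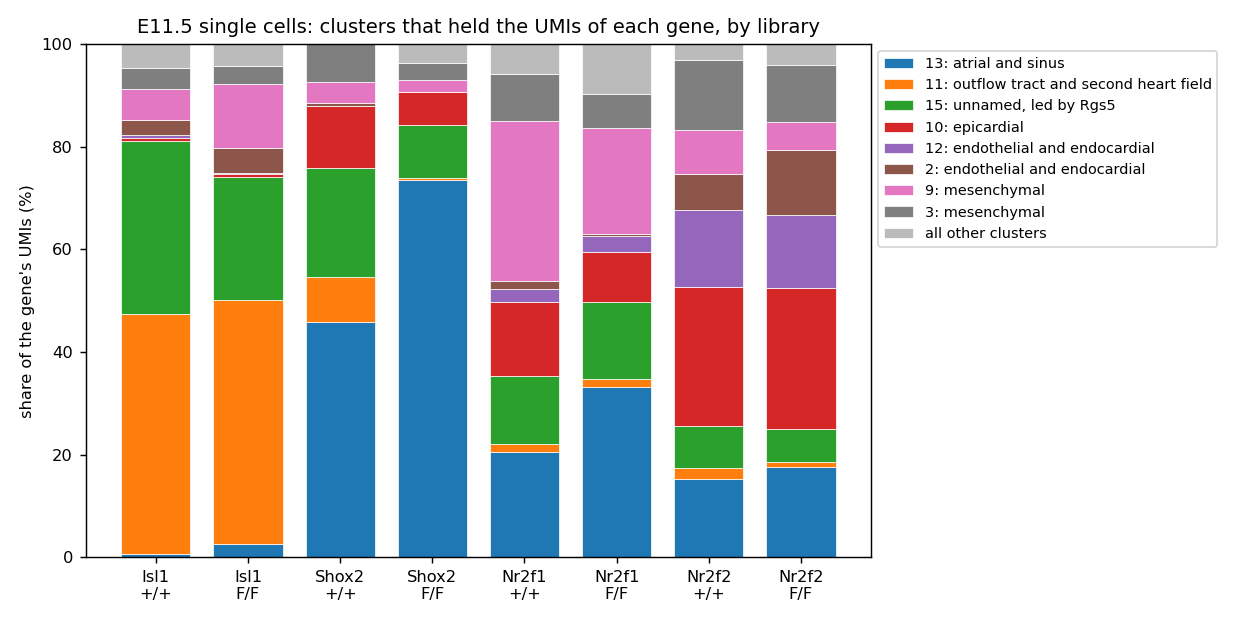
Share of each gene's UMIs (vertical axis, percent) held by 8 clusters and by all others, with a bar for each gene and library. Cluster 13 holds 45.8% and 73.5% of Shox2, and clusters 11 and 15 together hold most of Isl1.

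Within clusters the 4 genes parted further. The atrial and sinus-like cluster split into 5 sub-clusters, and Shox2 was concentrated in one of 16 cells led by Smoc2, Tbx18, Mgp and Col1a1, where all 16 cells had a Shox2 UMI and the level was 788 CPM (141 UMIs, 663 to 929). Tbx18, a T-box factor of the sinus horns, stood at 223.5 CPM in that sub-cluster and at no more than 9.30 CPM in the other 4. Hcn4, the pacemaker channel that defines the sinus node, stood at a low 16.8 CPM in that sub-cluster and at 0 in the others. No interval was taken for Hcn4, so that contrast was not set against counting error. The other sinus markers were uneven across the cluster. Smoc2 stood at 352 CPM in that sub-cluster and at no more than 19.6 CPM in the others, and Vsnl1 ranged from 13.25 to 373.5 CPM. Tbx3 was highest, at 199 CPM, in the sub-cluster led by Myh7, Myl2 and Bmp2. The cluster as a whole was thus not evenly sinus-like. The sub-cluster led by Cck and Osr1 (17 cells) had the highest Nr2f2, 243 CPM (176 to 328), and Shox2 at 192 CPM. A sub-cluster led by the atrial genes Nppa and Sln (31 cells) had the highest Nr2f1, 212 CPM (170 to 260), and its 52 Shox2 UMIs came from 6 cells, all of the library labelled F/F. Its Nr2f1 did not stand apart from that of the Tbx18 sub-cluster, 201 CPM (141 to 278). A sub-cluster led by Myh7, Myl2 and Bmp2 (28 cells) was low in all, with Shox2 at 19.9 CPM, Nr2f1 at 23.2 CPM and Nr2f2 at 59.6 CPM.

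The unnamed cluster 15 also held cells of different kinds. Sub-cluster 3, with 38 cells led by Vsnl1, Gal and Osr1, held Shox2 at 136 CPM (104 to 175), Nr2f1 at 129 CPM (98.2 to 167) and Nr2f2 at 125 CPM (94.4 to 162), but Isl1 at only 22.3 CPM (10.7 to 41.0). In the other 5 sub-clusters Isl1 was 114 to 185 CPM, Shox2 at most 9.06 CPM and Nr2f2 at most 53.1 CPM. Isl1 was at 114 CPM (87.8 to 146) in cells led by Hhex, Nkx2-1 and Krt18, where the lung and thyroid factor Nkx2-1 stood at 39.9 CPM, and at 185 CPM (142.5 to 236) in cells led by the muscle genes Myh7, Myl7 and Ttn. With 9 to 50 cells a sub-cluster, these levels describe the cells captured here.

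**Figure D3:**
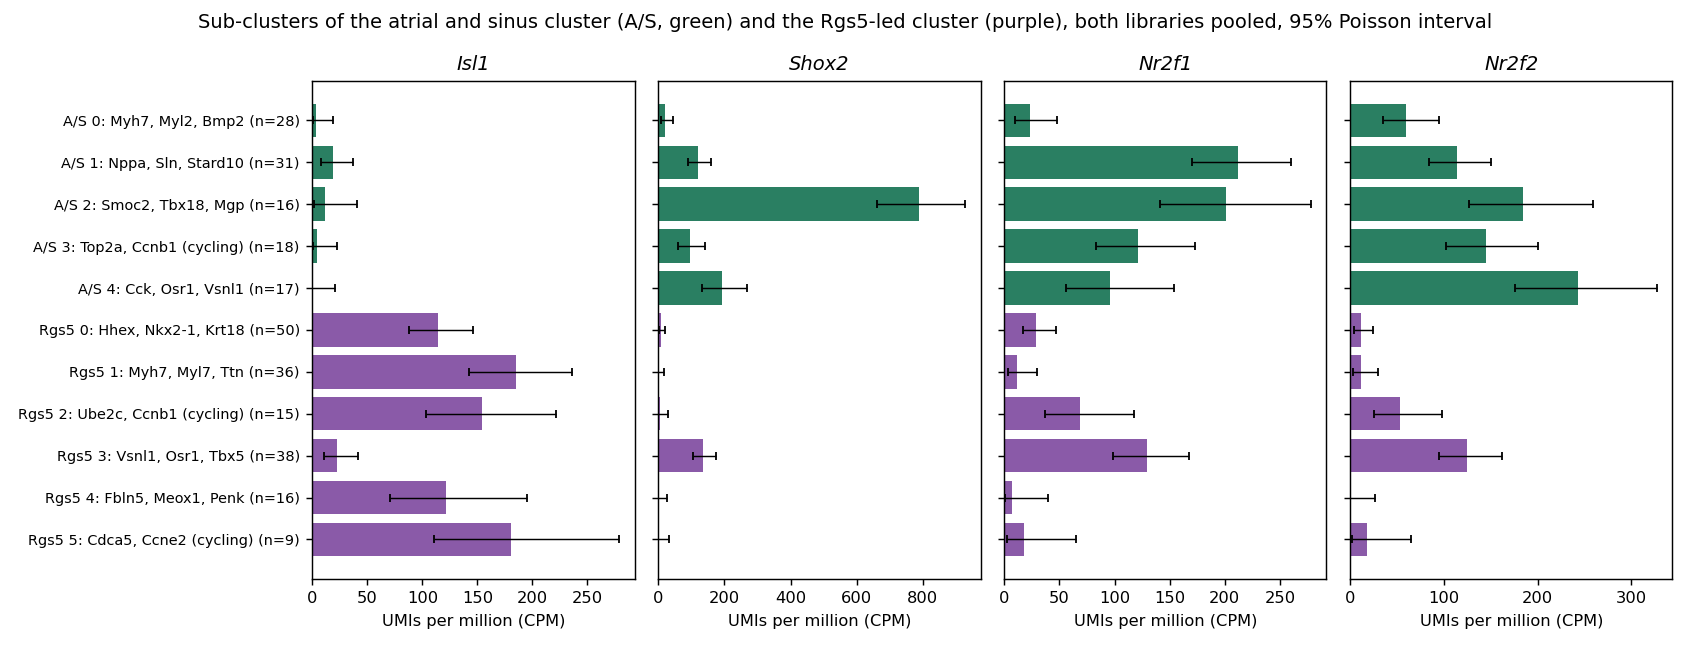
Level of each gene in CPM (horizontal axis, linear, own scale per gene) in 5 sub-clusters of the atrial and sinus-like cluster (A/S, green) and 6 of the Rgs5-led cluster (purple), both libraries summed, with exact 95% Poisson intervals; leading genes and cell numbers stand at the left. Shox2 reaches 788 CPM in the Tbx18 sub-cluster, and sub-cluster 3 of the Rgs5-led cluster pairs low Isl1 with high Shox2, Nr2f1 and Nr2f2.

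Cell by cell, after each cell was thinned to 5000 UMIs, the other genes were rare in cluster 11 with or without Isl1. Of its 77 cells with an Isl1 UMI, 1 had a Shox2 UMI, 1 had an Nr2f1 UMI and none had an Nr2f2 UMI. Of its 175 cells without one, 1 had a Shox2 UMI, none had an Nr2f1 UMI and 4 had an Nr2f2 UMI. In cluster 13, Nr2f2 was found in 20 of 34 cells with Shox2 (58.8%) and in 27 of 70 cells without it (38.6%). In cluster 15, Nr2f2 was found in 8 of 23 cells with Shox2 (34.8%) and in 11 of 139 without it (7.91%), while Isl1 was found in 5 of those 23 (21.7%) and in 56 of those 139 (40.3%). These shares pool both libraries.

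Across 28 points (15 clusters, each taken in every library that held at least 50 of its cells), the gene most like Isl1 was Phlda2 (Pearson r of log2(CPM + 1) 0.907), an imprinted growth-restraining gene, followed by Arhgef28, Fam159a, Inha and Crabp2. The gene most like Shox2 was Vsnl1 (0.925), a calcium sensor used as a sinus marker, followed by Smoc2 (0.896), Fzd7, Osr1 and then Nr2f1 (0.817). Most like Nr2f1 were Cpt1c (0.890) and its own antisense neighbour A830082K12Rik (0.887), then Zfhx4, Cnih2 and Atoh8. Most like Nr2f2 were Aard (0.951), Shc1, Plat, Cdh11 and Nkain4. Among the 4 genes r was 0.805 for Nr2f1 with Nr2f2 and 0.473 for Isl1 with Nr2f2. The points share libraries and differ in depth, so these are descriptions.

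In bulk tissue all 4 genes were higher in E11.5 hearts than in E16.5 ventricles. Isl1 was 1.16, 0.96 and 0.81 FPKM in the E11.5 F/+ hearts and 0 in all 3 E16.5 F/+ ventricles. In F/F it was 1.81, 1.63 and 0.98 FPKM at E11.5 and 0, 0.15 and 0.16 FPKM at E16.5. No E16.5 library reached any E11.5 library. Isl1 missed the filter of a mean of 1 FPKM over the 12 embryonic libraries, and in a limma fit with no such filter its adjusted p was 7.24e-04 in F/+ and 3.30e-04 in F/F.

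Shox2 was 5.69, 16.4 and 6.90 FPKM in the E11.5 F/+ hearts and 0.75, 0.56 and 0.71 FPKM in the E16.5 F/+ ventricles. In F/F it was 13.2, 5.2 and 9.75 FPKM at E11.5 and 0.38, 0.57 and 1.53 FPKM at E16.5. The stages did not overlap, and the E11.5 hearts of each genotype spread widely, with 1 of the F/+ hearts far above the others. Shox2 passed the filter through its E11.5 values alone, so its log2 fold changes of log2(FPKM + 1) in the filtered fit, -2.54 in F/+ (SE 0.38) and -2.48 in F/F, are given as a description. In the limma fit with no filter its adjusted p was 0.0027 in F/+ and 0.00325 in F/F.

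Nr2f1 was 14.8, 19.5 and 11.4 FPKM in the E11.5 F/+ hearts and 1.28, 1.55 and 1.05 FPKM in the E16.5 F/+ ventricles. In F/F it was 14.7, 12.04 and 10.1 FPKM and then 1.07, 1 and 1.26 FPKM. Again no library overlapped between stages. The limma log2 fold change was -2.80 in F/+ (SE 0.21, adjusted p 5.64e-07) and -2.64 in F/F (adjusted p 1.00e-06).

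Nr2f2 stayed highest in the ventricles of the 4 genes. It was 27.7, 19.4 and 23.8 FPKM in the E11.5 F/+ hearts and 10.96, 10.6 and 9.46 FPKM in the E16.5 F/+ ventricles. In F/F it was 18.0, 21.4 and 17.3 FPKM and then 13.3, 9.92 and 11.4 FPKM. Stages did not overlap in either genotype. The limma log2 fold change was -1.10 in F/+ (SE 0.16, adjusted p 1.20e-04) and -0.67 in F/F (SE 0.16, adjusted p 0.00464). With all 25 bulk libraries in a single limma fit the F/F value missed the threshold (adjusted p 0.0986). The ratio of Nr2f2 to Nr2f1 FPKM, both scaled by length, was 1.65 ± 0.580 (SD, n = 3) in E11.5 F/+, 8.15 ± 1.13 in E16.5 F/+, and 1.57 ± 0.302 and 10.5 ± 1.76 in F/F, with no overlap between stages.

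Nr2f1 and Nr2f2, which passed the filter at both stages, were called lower in both genotypes, where limma called 31.2% of 11423 genes lower in F/+ and 31.2% in F/F. Libraries of the stages did not overlap, with E16.5 lower, for 36.9% of genes in F/+ and 35.8% in F/F. Stage and tissue differ together, since whole hearts were set against ventricles, which cannot be told apart. In bulk, fewer cells of a type and less RNA per cell cannot be told apart either. Beside these falls, the summed FPKM of 12 sinus markers was 422 to 572.5 in E11.5 F/+ and 154 to 162 in E16.5 F/+, that of 14 atrial markers 2673 to 3198 and 1076 to 1276, that of 12 epicardial markers 303 to 442 and 72.2 to 89.0, and that of 12 outflow tract and second heart field markers 87.8 to 169.8 and 24.9 to 30.3. The sum of 18 endothelial markers was 567 to 609 and 608.5 to 645, and that of 18 mesenchymal markers 575 to 713 and 1279 to 1446. That of 12 ventricular markers was 5056 to 6001 and 8779 to 9821, so these sums did not fall. Abundant genes weigh most in a sum, and many of these markers did fall. Col1a1 averaged 175.5 and 551 FPKM in F/+, but Twist1 49.2 and 2.39 FPKM. In F/+ limma called 8 of 16 mesenchymal markers tested lower and 4 higher (median log2 fold change -0.54). It called 7 of 12 ventricular markers lower and 5 higher (-0.55), and 6 of 18 endothelial markers each way (-0.15). The part of these marker lists in the falls of the 4 genes was not tested.

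**Figure D4:**
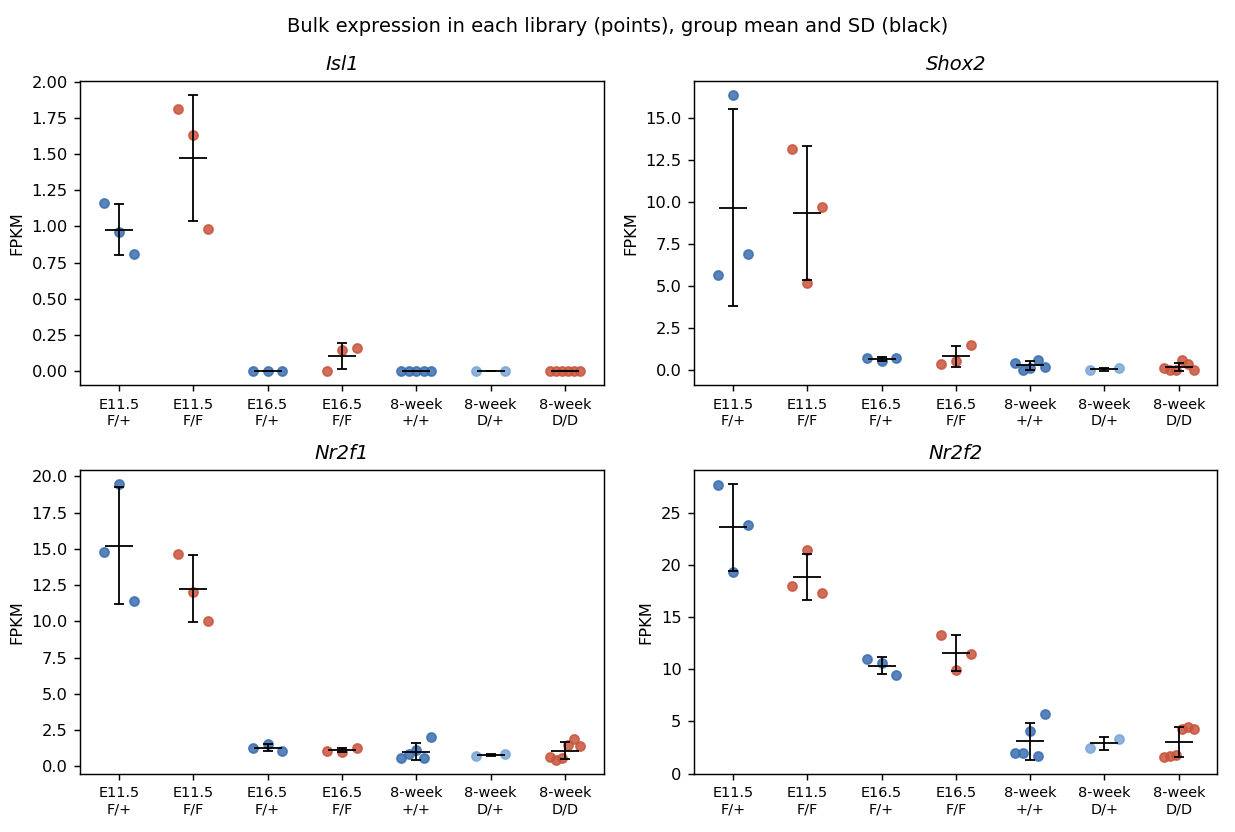
FPKM (vertical axis, linear, own scale per gene) of each gene in every bulk library (points) by stage and genotype, with the group mean and SD in black. The E11.5 hearts stand above all later libraries for each gene, and F/F (red) overlaps F/+ (blue) at E11.5.

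Among lists of genes that work beside the 4, some mostly fell with stage and others split. Of all genes tested, limma called 18.3% higher at E16.5 in F/+ and 18.8% in F/F, beside the 31.2% called lower in each. Of 17 second heart field genes tested in F/+, 13 fell and 1 rose, with a median log2 fold change of -1.66 against -0.18 for all genes tested. They included Aldh1a2, which makes retinoic acid (-2.60), the ligand Bmp4 (-2.42) and Osr1 (-2.29). In F/F 8 of the 17 fell, with a median of -0.78. Of 18 sinus node and venous pole genes, 12 fell and 2 rose in F/+ (median -1.02), led by Vsnl1 (-3.15) and the calcium channel subunit Cacna2d2 (-2.44), and 10 fell and 2 rose in F/F (median -0.93). Of 16 atrial chamber genes, 13 fell and 1 rose in both genotypes (medians -1.26 and -1.47), among them Mybphl (-4.40 in F/+) and the atrial myosin light chain Myl7 (-3.36 in F/+), while Cav1 rose (2.97 in F/+). Vsnl1 averaged 8.03 FPKM in E11.5 F/+ and 0 in E16.5 F/+, and Mybphl 31.2 and 0.53 FPKM. Like Shox2, they passed the filter through their E11.5 values, so their fold changes are a description. The counts of falls include such genes.

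Ventricular chamber genes split, with 6 of 14 higher and 7 lower in F/+ (median -0.01). Myh7 rose (2.76) and Myl2 fell (-2.76). Among 21 partners and relatives of the 4 factors, 5 rose and 6 fell in F/+ (median 0.00), including the zinc-finger cofactor Zfpm1 (-1.57) and the receptor Rxra, a partner of nuclear receptors (1.26). Of 5 vein and lymphatic endothelium genes, 3 rose in F/+ and none fell (median 0.44), among them Prox1 (1.55) and Aplnr (1.22), and in F/F 4 rose. The lists are described by counts and medians only.

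Genotype left none of the 4 genes past the limma threshold at any age. At E11.5 limma called 0.0087% of 11491 genes, which is 1 gene, and 4.37% had an unadjusted p under 0.05; none of the 4 was among either. Isl1 averaged 0.977 ± 0.176 FPKM (SD, n = 3) in F/+ and 1.47 ± 0.437 FPKM in F/F, a log2 fold change of 0.31 with a 95% interval of -0.51 to 1.13. Its F/+ mean lay under the filter of 1 FPKM. It thus entered this fit through its F/F values, and its fold change is given as a description. Shox2 averaged 9.66 ± 5.87 and 9.37 ± 3.99 FPKM (0.01, -0.88 to 0.90). Nr2f1 averaged 15.2 ± 4.06 and 12.3 ± 2.31 FPKM (-0.28, -0.82 to 0.27), and Nr2f2 23.6 ± 4.17 and 18.9 ± 2.20 FPKM (-0.30, -0.74 to 0.14). The adjusted p was 0.999 for all 4 by limma. The groups overlapped for each of the 4 genes. Over all genes, F/F hearts were all higher than F/+ hearts for 4.93% and all lower for 4.31%. The intervals of Isl1 and Shox2 were the widest of the 4.

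Shox2 and the sinus markers peaked in the same heart of each genotype. The heart with the highest Shox2 in F/+ (replicate 2, 16.4 FPKM) had the highest sinus marker sum (572.5), and in F/F replicate 1 led both (13.2 and 584) and replicate 2 was lowest in both (5.2 and 363). The other F/+ hearts did not keep that order, with Shox2 at 5.69 and 6.90 FPKM beside sums of 479 and 422. The peak was not particular to sinus markers. F/+ replicate 2 and F/F replicate 1 also led their genotype in cardiomyocyte (12210 and 14710), outflow tract (169.8 and 141) and mesenchymal markers (713 and 630). The role of marker content in the genotype comparison was not tested. Foregut and lung markers also differed between hearts, with summed FPKM of 35.7, 15.6 and 2.09 in F/+ and 0.0400, 5.14 and 0.460 in F/F. None of the second heart field, sinus, atrial, ventricular, partner, vein or artery genes was called by genotype at E11.5, with medians of -0.14 for second heart field, -0.02 for sinus and 0.26 for atrial genes, against 0.02 for all genes.

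At E16.5 limma called 0.00935% of 10699 genes by genotype, again 1 gene and none of the 4, with 281 genes (2.63%) at an unadjusted p under 0.05. Nr2f1 averaged 1.29 ± 0.250 FPKM in F/+ and 1.11 ± 0.135 FPKM in F/F (log2 fold change -0.12, 95% interval -0.51 to 0.27). Nr2f2 averaged 10.4 ± 0.790 and 11.6 ± 1.70 FPKM (0.14, -0.16 to 0.43). Isl1 and Shox2 missed the filter. The stage difference itself was compared between genotypes by an interaction term, for which limma called 0.00875% of 11423 genes, and 4.32% had an unadjusted p under 0.05. For Nr2f2 it was 0.44 (SE 0.23, 95% interval -0.06 to 0.94, unadjusted p 0.0815, adjusted p 0.999 by limma), for Nr2f1 0.16 and for Shox2 0.07, so a smaller Nr2f2 fall in F/F was not established.

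Within the single cells, levels in the library labelled F/F were often below those in the library labelled +/+, and with 1 library each there is no test. Over all cells the log2 ratio of F/F to +/+ was -0.28 for Isl1 (95% counting interval -0.50 to -0.07), -0.42 for Shox2 (-0.70 to -0.14), -0.22 for Nr2f1 (-0.45 to 0.00) and -0.10 for Nr2f2 (-0.28 to 0.08). None reached a 1.5-fold fall, which 2.72% of 12891 genes reached. Such shares count only genes that had 20 UMIs or more on both sides. In cluster 13 the ratio was -0.53 for Shox2 (-0.90 to -0.15), -0.32 for Nr2f1 (-0.77 to 0.14) and -0.69 for Nr2f2 (-1.13 to -0.24). Of those 3 genes only Nr2f2 passed a 1.5-fold fall, beside 12.8% of 2829 genes in that cluster. The cluster also differed in makeup, since 27 of 75 cells of the library labelled F/F and 4 of 35 of the library labelled +/+ were in the Nppa sub-cluster. The summed level of 12 sinus markers in cluster 13 was 2987 CPM with 12 detected in the library labelled +/+ and 2163 CPM with 11 detected in the library labelled F/F, and its part in the Shox2 ratio was not tested. Inside the Tbx18 sub-cluster Shox2 was 991 CPM in 7 cells and 613 CPM in 9 cells (-0.69, -1.20 to -0.19). Nr2f1 fell further there (-1.60, -2.81 to -0.50, from 26 and 10 UMIs). In the sub-cluster led by Cck and Osr1 the Shox2 ratio was 0.20 (-0.85 to 1.30), with an interval that spans 0.

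After thinning, the share of cluster 13 cells with a UMI was 32.4% and 32.9% for Shox2, 32.4% and 31.4% for Nr2f1, and 47.1% and 44.3% for Nr2f2. Unthinned, with median depths of 10790 and 12349 UMIs, those shares were 45.7% and 36.0% for Shox2, 60.0% and 52.0% for Nr2f1, and 85.7% and 62.7% for Nr2f2. Thinning left out 1 and 5 cells. On thinned counts the Nr2f1 ratio of cluster 13 turned to 0.39, and the Isl1 ratio of cluster 11, which was -0.34 (-0.66 to -0.02), became -0.02.

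Elsewhere, Shox2 was lower in the library labelled F/F in cluster 15 (-1.02, -1.82 to -0.26) and in epicardial-like cells (-1.70, -2.75 to -0.71, from 26 and 14 UMIs), and Nr2f1 was lower in epicardial-like cells (-1.17, -1.85 to -0.50). The 12 sinus markers of cluster 15 summed to 654.7 and 408.4 CPM, with 11 detected in each library. A 1.5-fold fall was reached by 4.73% of genes in cluster 15 and by 6.42% in epicardial-like cells, where Shox2 itself lay under that minimum. In the epicardial-like cells 7 of the 26 Shox2 UMIs of the library labelled +/+ came from 1 cell. In the opposite direction, Isl1 was higher in mesenchymal-like cluster 9 of the library labelled F/F (1.18, 0.40 to 2.02), where 1.6% of 8213 genes rose 1.5-fold. There it had 20 UMIs in 18 of 200 cells and 46 UMIs in 37 of 187 cells, with no more than 3 in any cell.

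**Figure D5:**
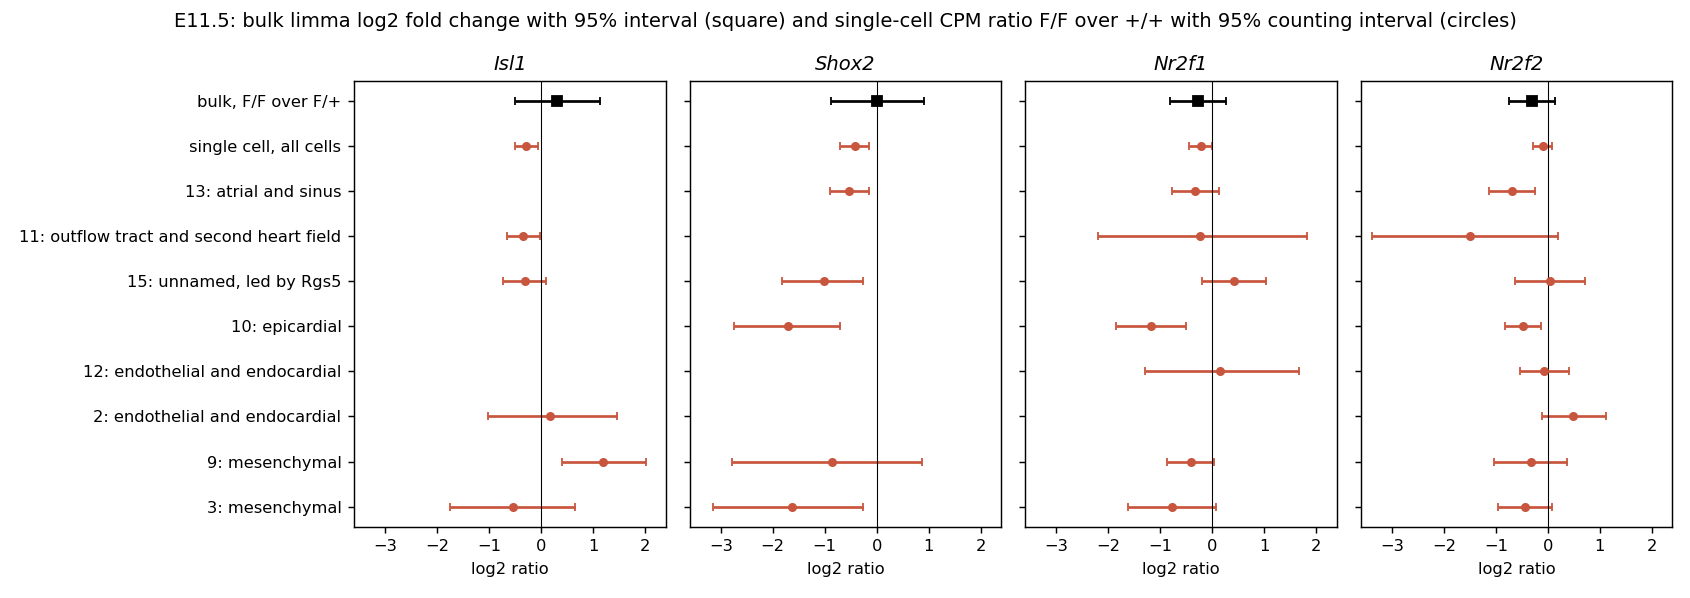
Log2 ratio (horizontal axis) of F/F over control at E11.5 for each gene, with bulk limma fold changes of F/F over F/+ and 95% intervals as squares and single-cell CPM ratios of the library labelled F/F over that labelled +/+ as circles, with 95% counting intervals; clusters with fewer than 5 UMIs in either library are left out. All bulk intervals span 0, and the single-cell intervals cover counting error only.

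In 8-week cardiomyocytes the 4 genes were low. Isl1 was listed at 0 in all 13 libraries. Shox2 ranged from 0 to 0.64 FPKM in +/+, was 0 and 0.13 FPKM in D/+, and in D/D was 0 at the lowest, 0.0800 at the median and 0.59 FPKM at the highest. Both missed the filter. Nr2f1 was 0.61, 0.83, 1.11, 0.61 and 2 FPKM in +/+, 0.74 and 0.86 FPKM in D/+, and 0.48, 1.02 and 1.90 FPKM (lowest, median, highest) in D/D.

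Nr2f2 was 2.01, 1.96, 4.11, 1.74 and 5.73 FPKM in +/+, 2.47 and 3.33 FPKM in D/+, and in D/D 1.56 at the lowest, 3.04 at the median and 4.45 FPKM at the highest. The groups overlapped, as for nearly all genes, since D/D lay wholly above the controls for 0.0195% and wholly below for 0.00976%. In D/D, replicates 1 to 3 lay between 1.56 and 1.84 FPKM and replicates 4 to 6 between 4.24 and 4.45 FPKM. Markers of several cell types differed among the same libraries. The summed FPKM of 18 endothelial markers was 344, 354 and 256 in D/D replicates 1 to 3 and 527, 922 and 602 in replicates 4 to 6, and in +/+ it was 366, 374, 510, 204 and 736, highest in replicates 3 and 5, where Nr2f2 was highest too. The sum of 12 macrophage and myeloid markers was 9.77, 12.2 and 4.22 in D/D replicates 1 to 3 and 22.3, 38.8 and 15.2 in replicates 4 to 6, and in +/+ it was 6.61 to 12.98. The sum of 12 cardiomyocyte markers was 41410, 42560 and 37500 in D/D replicates 1 to 3 and 36760, 32440 and 29550 in replicates 4 to 6. In D/D, the libraries with more Nr2f2 were thus higher in endothelial and myeloid markers and lower in cardiomyocyte markers. In +/+ the myeloid and cardiomyocyte sums did not follow Nr2f2 in that way. Replicates 3 and 5 had myeloid sums of 11.06 and 10.4, beside 12.4, 12.98 and 6.61 in replicates 1, 2 and 4. Their cardiomyocyte sums were 36400 and 39260, beside 35750, 34890 and 39110. The part of these markers in the Nr2f2 spread was not tested.

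Limma called 0% of 10249 genes between D/D and both controls together, with 175 genes (1.71%) at an unadjusted p under 0.05. Against +/+ alone it called 0% as well, with 1.01% at an unadjusted p under 0.05. The log2 fold change was -0.02 for Nr2f2 (95% interval -0.58 to 0.53) and 0.06 for Nr2f1 (-0.35 to 0.48). Without +/+ replicate 5, the library whose Hand2os1 went against its label, Nr2f2 was 0.11 and Nr2f1 fell below the filter. From E16.5 F/+ ventricles to 8-week +/+ cardiomyocytes Nr2f2 was lower by 1.56 on the log2 scale (-1.56, SE 0.30, adjusted p 0.00116 by limma) with no overlap, where 44.9% of 10904 genes were called lower and 44.2% were lower with no overlap. Without replicate 5 the Nr2f2 value was -1.76. Nr2f1 did not pass (-0.21, adjusted p 0.409 by limma). Genotype, preparation and the shift in Gapdh come with that age step and cannot be told apart from it.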

How the data were processed

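Bulk values are FPKM as deposited by the authors; no header names the unit, which was inferred from the values, so depth is unknown. Per the submitters' processing notes, CASAVA, TopHat2 2.0.11 and build mm9 were used for bulk data and Cell Ranger and build mm10 for single cells; the counting tool and annotation are not given in the sources used here. The single-cell table holds UMI counts as deposited by the authors. Repeated symbols of the bulk data (270, on 769 identical lines) were merged, and a gene whose row has an empty cell (1) was dropped.

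Bulk: limma 3.58.1 (R 4.3.3) with an intensity trend on log2(FPKM + 1), keeping genes that average 1 FPKM or more over the libraries fitted, Benjamini-Hochberg over all genes, threshold 0.05; fold changes on this scale understate low genes. The test was checked on simulated data. Single cells (Scanpy 1.11.5): at least 500 genes (2555 and 3464 barcodes); scrublet's automatic threshold marked too few (0.0997%), so the highest scores were removed at 0.8% per 1000 barcodes (52 and 96); 2000 variable genes without the 4 genes, 30 components, 15 neighbours, Leiden resolution 1. Clusters were named from marker lists; no annotation of cells was used here. UMIs were summed per cluster and library. Intervals are exact at 95% (Poisson, Clopper-Pearson, conditional binomial); a count of 0 allows 3 UMIs. Shares were also taken after thinning to 5000 UMIs.

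The genes and lists were chosen with earlier results of these data known. Named list genes are up to 4 per list and comparison with the largest called change; like genes are the 5 with the highest r among genes with at least 100 UMIs. Alternatives were other scalings, pseudocount 0.1, no filter, covariates, the replicate block, a joint fit and left-out libraries, and for single cells other filters, doublets kept and thinning; leaving out both 8-week libraries that clustering set apart was added after seeing the data.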

Additional observations from a re-analysis of the deposited data

How the results depend on the processing

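Over 52 values, 605 of 661 alternatives kept direction and side of the threshold, 32 turned direction, 1 lost its call and 23 moved; the stage fall of Nr2f1 passed under every alternative run. The lost call is Nr2f2 from E11.5 to E16.5 in F/F, -0.67 with adjusted p 0.0986 by limma in the fit of all 25 libraries. All turned values were uncalled. By genotype at E11.5, Shox2 was -0.00050 with median-ratio and -0.0049 with upper-quartile scaling, -0.053 without haemoglobin in the total and -0.078 with a Y-linked covariate. At 8 weeks, Nr2f2 in D/D against both controls was 0.012 without both libraries that stand apart; against +/+ alone it was 0.083 without them and 0.0052 with a term for the 2 sets. Nr2f1 from E16.5 to 8 weeks was 0.012 with median-ratio scaling. Causes were not tested.

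Called genes by genotype at E11.5 numbered 1, and 24 with all 25 libraries; at E16.5 1, and 2 with pseudocount 0.1, 0 with no filter and 3 with the Y-linked covariate; for the interaction 1, and 2 with pseudocount 0.1, 4 with no filter and 6 with all 25 libraries. In single cells, thinning gave log2 ratios of 0.062 for Nr2f1 in all cells, 0.39 for Nr2f1 in cluster 13, -0.06 for Nr2f2 in epicardial-like cells and -0.023 for Isl1 in cluster 11. Isl1 in endothelial-like cells (0.14) became -1.99 with at least 1000 genes per barcode, -2.60 with doublets kept and -1.96 with the 4 genes among the variable genes; under these settings 1 endothelial-like cluster was named instead of 2.

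Whether replicate numbers pair the samples could not be settled with so few libraries per group. Same-numbered deviations correlated at -0.04 to 0.08 at E11.5, -0.44 to 0.04 at E16.5 and -0.10 to 0.53 at 8 weeks. At these ages 2 of 6, 1 of 6 and 3 of 10 libraries correlated best with their own number. With the replicate block, genes called at E11.5 became 2, and Nr2f1 at 8 weeks became -0.053 against both controls and -0.025 against +/+; no call on the 4 genes changed.

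Leaving out each library gave ranges by genotype at E11.5 of 1 to 2 called genes and -0.26 to 0.43 for Shox2; at E16.5 of 0 to 2 called genes; at 8 weeks of -0.13 to 0.11 for Nr2f2 against both controls, and of -0.14 to 0.18 for Nr2f2 and -0.048 to 0.11 for Nr2f1 against +/+. The interaction ranged over 1 to 9 called genes, -0.35 to 0.33 for Shox2 and -0.023 to 0.34 for Nr2f1. The count was 9 without E11.5 F/+ replicate 3, and 2 without E11.5 F/+ replicate 2 or E11.5 F/F replicate 2; by genotype it was 2 without E11.5 F/+ replicate 3, E16.5 F/+ replicate 2 or E16.5 F/F replicate 3, and 0 without E16.5 F/+ replicate 3 or E16.5 F/F replicate 1. Where a replicate was left out of the pair of D/+ libraries, the lone library was assumed to vary like the others. No value could be had for Isl1 at E11.5 in the joint fit, or for Nr2f1 at 8 weeks without +/+ replicate 5, D/D replicates 4, 5 or 6, or both libraries set apart, since their means fell below the filter.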
